A study of Zea mays subsp. mays and Zea mays subsp. parviglumis and Zea luxurians with 126 samples.

Results

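The genes described here are the mRNAs that carry a predicted miR396 cut site with reads beginning exactly at it, in anthers of 7 *Zea* varieties and of plants with mutant *ago18* alleles. They were chosen by 3 conditions: a small RNA named miR396, an Allen score of at most 4, and a target outside *PHAS* loci, which are the loci that give rise to phasiRNAs. In the Allen score each mismatch of a small RNA with its site adds a penalty, so a low score means close pairing. These conditions gave 120 genes of the 18870 target genes and loci in the tables of all miRNAs. Because gene identifiers differ between assemblies, the 120 genes include several names for what may be the same gene in different varieties. Of the 120, the study's list of conserved target sets names 45, all under the transcription factor family GRF (GROWTH-REGULATING FACTOR). The variety RIL003 had no annotation of corresponding genes in the study, so none of its 15 genes could be in that list.

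miR396 is a miRNA shared by most land plants, and its best-known targets are the mRNAs of the GRF transcription factors. GRF proteins work together with GIF coactivators to keep cells dividing in young organs, and miR396 cuts GRF mRNAs within the stretch that encodes the WRC domain, the part of the protein that binds DNA. In grasses the pair is known for its effects on leaf, panicle and grain size. A cut leaves a new 5′ end on the downstream part of the mRNA, and nanoPARE, which captures 5′ ends, counts such ends.

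The miR396 sequences of the study's miRNA table are shown because most members paired with one of them, and because they fall into different seed groups. Other miR396 names of B73, such as miR396c and miR396g-5p, are listed for some sites without a sequence shown here. Capitals mark the seed, bases 2 to 8 counted from the 5′ end, and all 4 are 21 nt long.
miR396b-5p: uCCACAGGcuuucuugaacug
miR396b: uUCCACAGcuuucuugaacug
miR396f-5p: uUCCACAGcuuucuugaacuu
miR396_miRador: gUUCAAUAaagcugugggaaa
miR396b and miR396f-5p share the seed UCCACAG, while miR396b-5p has the seed CCACAGG. miR396b-5p was listed in all 7 varieties, miR396b in 5, miR396f-5p in 6 and miR396_miRador in TIL11 alone.

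The samples were 63 pairs of Smart-seq2 and nanoPARE libraries in 24 groups of 2 or 3 replicates from distinct plants. Anthers of 2 and 0.4 mm came from 4 maize inbred lines, namely B73, Il14H, HP301 and Oh43. The teosintes were *Z. mays* ssp. *mexicana* TIL25, with anthers of 1.5 and 0.4 mm, *Z. mays* ssp. *parviglumis* TIL11, with anthers of 0.4, 0.7, 1, 1.5 and 2 mm, and *Zea luxurians* RIL003, with anthers of 0.4, 0.7 and 1.5 mm. No mutant allele is given for any of these 7 varieties, and the maize lines grew in a greenhouse while the teosintes grew in a growth chamber. AGO18 is an Argonaute, a protein that holds small RNAs, found in grasses. The *ago18* plants were ago18HM, homozygous mutant at all 3 *AGO18* genes, and their siblings ago18HT, heterozygous at all 3, each with anthers of 0.5, 2 and 5 mm. The *ago18a* and *ago18b* alleles came from CRISPR-Cas9 and the *ago18c* allele from a *Mu* insertion, so that ago18HT plants carry the same alleles and are not wild type.

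The unit is RPM, the reads that begin at a site, scaled to the depth of the library (1 M reads). Depth recovered from the steps between RPM values lay between 1.35 and 18.7 M reads (median 7.55 M), so 1 read was worth 0.0536 to 0.743 RPM. As a check of the length labels, loci with a significant miR2118 site on a *21-PHAS* locus numbered 1 to 8 in the 2-mm libraries of the maize lines and 92 to 134 in the 0.4-mm libraries. The 1.5-mm libraries of TIL25 still had 76 to 95 such loci, against 53 to 74 in its 0.4-mm libraries, while its loci with a significant miR2275 site on a *24-PHAS* locus numbered 72 to 73 at 1.5 mm, against 3 to 17 at 0.4 mm. The tables hold no expression values, so the anther label was not checked against marker genes, and transcript levels were not analysed here. In whole anthers, fewer cells of a type and less RNA per cell cannot be told apart, and neither can more cutting and more transcript.

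The 120 genes split into 2 groups by how well they paired. At a score of at most 3 there were 81 genes, 78 of them at exactly 2, and all 45 GRF-listed genes had a score of 2. These sites were listed for miR396b-5p, except that the score of 2 for Zm00001eb269150 in B73 belonged to miR396c and miR396d. The other 39 genes had scores of 3.5 or 4, mostly for miR396b or miR396f-5p, and none of them is in the study's GRF list. Their names and functions were not looked up, since no annotation at hand matched the identifiers.

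Reads at single genes were few. The members gave 408 values above 0, counting each gene in each library, of which 154 were at or under 1 read, 291 at or under 3 reads and 13 over 10 reads. The median RPM was 0.270 at scores of at most 3 and 0.231 at 3.5 or 4, so the classes had similar levels where a site was listed. The authors' adjusted p for a site was below 0.05 in 286 of the 293 values at scores of at most 3, against a background of 68.8% over all miRNA families at those scores. It was below 0.05 in 2 of the 115 values at 3.5 or 4, where the background was 8.28%. The Allen score enters that p, so the difference between the classes is no separate evidence of cutting. The backgrounds include miR396 and pool all scores of a class. At scores of at most 3, 88 of the 91 miR396 entries of a gene in a set of libraries scored exactly 2. The shares are therefore not compared at equal scores.

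Summed over the closely paired sites, cut ends were more abundant in the later anthers of 5 varieties, with no overlap between lengths. In B73 the sums for scores of at most 3 were 2.29 and 6.002 RPM at 2 mm, against 0.378 and 1.07 RPM at 0.4 mm. Those of HP301 were 3.80 and 4.03 RPM at 2 mm, against 1.43 and 0.190 RPM at 0.4 mm. Both lines had every 2-mm library above every 0.4-mm library. Il14H had 4.77 and 4.39 RPM at 2 mm, against 1.93, 1.15 and 0.952 RPM at 0.4 mm. Oh43 reached 2.17, 5.01 and 4.47 RPM at 2 mm, against 1.96 and 0.422 RPM at 0.4 mm. The gap in Oh43 was narrow, since its highest 0.4-mm library lay just under its lowest 2-mm library. Summed over all members, the lengths of Oh43 overlapped, with 2.17 to 5.01 RPM at 2 mm against 0.422 to 2.26 RPM at 0.4 mm. TIL25 had 1.51, 5.08 and 3.97 RPM at 1.5 mm, against 1.17, 0 and 0 RPM at 0.4 mm. The ratios of the means were 5.73 in B73, 4.83 in HP301, 3.41 in Il14H and 3.26 in Oh43, and TIL25 gave 9.02. The size of these ratios moved with single libraries, which were left out in turn after the data had been seen. In B73 the ratio was 3.17 without the second 2-mm library, 3.88 without the first 0.4-mm library and 10.96 without the second. In HP301 it was 20.6 without the first 0.4-mm library and 2.74 without the second, and in Oh43 it was 9.2 without the first and 1.98 without the second. The ratio of Il14H stayed between 2.98 and 4.36. In TIL25 the 0.4-mm mean came from 1 library of 3 reads, and without that library no ratio can be given. Without any 1 of the other libraries of TIL25 the ratio was 6.01 to 11.6. No p is given for a sum over chosen genes. Lengths without overlap were not particular to miR396. Summed over all other miRNA families, later anthers were lower without overlap in Il14H and higher without overlap in TIL25 and RIL003. Those sums overlapped in B73, HP301, Oh43 and TIL11.

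In TIL25 the sums of other miRNAs were higher at 1.5 mm as well. Its miR160 sites summed to 4.35 to 5.77 RPM at 1.5 mm, against 0.781 to 1.76 RPM at 0.4 mm, and the 0.4-mm libraries had only 1.71 to 2.56 M reads. The part of depth in the difference of TIL25 was not tested. A 0.4-mm library of TIL25 was the only library of the 63 without a listed member.

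The remaining varieties gave overlapping sums. Across the lengths of TIL11, the sums for scores of at most 3 were 1.00 and 1.18 RPM at 0.4 mm and 2.03, 2.19 and 3.08 RPM at 0.7 mm. The same sums were 4.90, 3.74 and 2.45 RPM at 1 mm, 2.25, 5.06 and 3.68 RPM at 1.5 mm, and 5.54, 3.51 and 1.66 RPM at 2 mm. Both 0.4-mm libraries of TIL11 lay below every other library of the variety, and the lengths from 1 to 2 mm overlapped each other. RIL003 had 0.445, 0.423 and 0.919 RPM at 0.4 mm, 1.56 and 0.224 RPM at 0.7 mm, and 2.05, 1.35 and 1.38 RPM at 1.5 mm. Its lengths overlapped through 1 library of 0.7 mm. The weakly paired sites behaved otherwise: their sums overlapped between later and earlier lengths in every variety except HP301, which had 0.608 and 0.643 RPM at 2 mm, against 0.440 and 0.569 RPM at 0.4 mm.

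**Figure D1:**
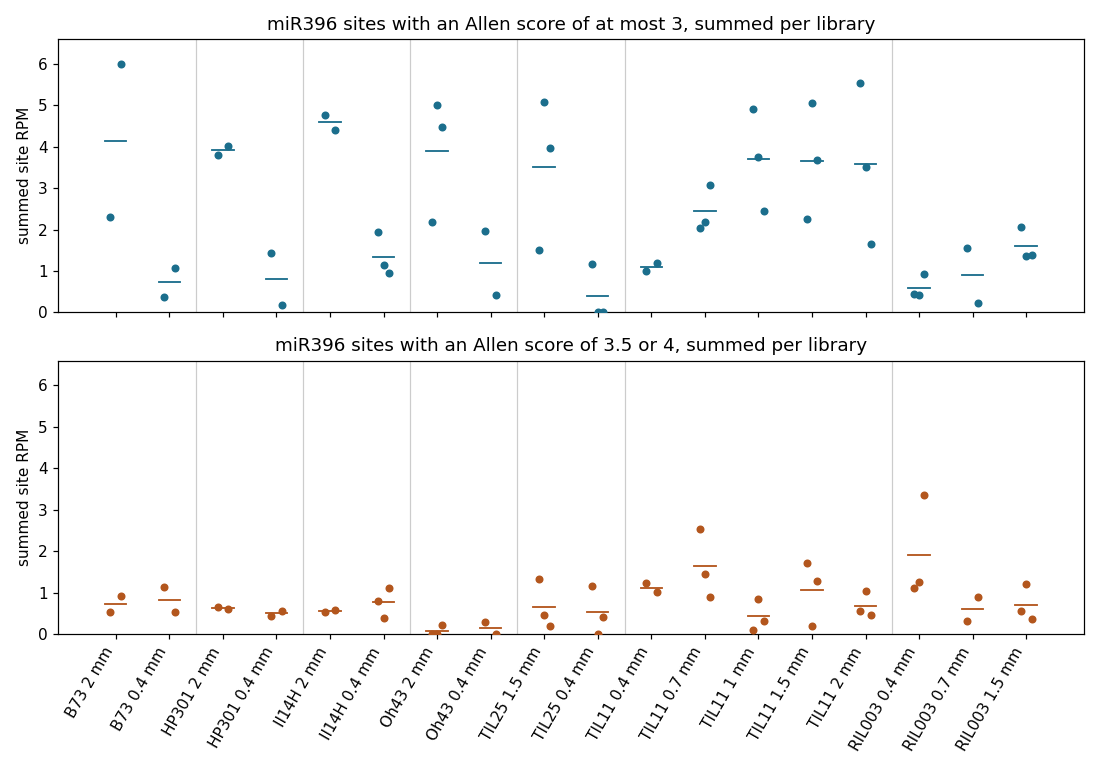
Summed site RPM of the miR396 members in each library (points) with the group mean (lines), for Allen scores of at most 3 (top) and of 3.5 or 4 (bottom), by variety and anther length. In B73, HP301, Il14H, Oh43 and TIL25 the upper panel shows every later library above every earlier one, while the sums in the lower panel overlap in all varieties but HP301.

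The most abundant closely paired site belonged to a GRF gene present as a set of corresponding genes in every annotated variety, the set of Zm00001eb430300. The study chose such conserved sets by detection on these samples, so their being detected is no separate evidence. It counted a site when at least 2 replicates showed it. A gene with 2 such replicates only at 2 mm could enter through that length alone, as Zm00001eb430300 did in B73. The permutation p-values of the sets given below are therefore no separate support for a difference between lengths. In B73, Zm00001eb430300 had 0.877 and 2.18 RPM at 2 mm, against 0 and 0.458 RPM at 0.4 mm. Its counterpart in HP301, Zm00027ab436650, had 1.70 and 1.22 RPM at 2 mm, against 0.771 and 0.0948 RPM at 0.4 mm. The first of these values stands for 31.7 reads, the most at any member in any library. Zm00028ab442380 of Il14H had 1.06 and 1.16 RPM at 2 mm, against 0.351, 0 and 0.173 RPM at 0.4 mm. Zm00039ab439720 of Oh43 had 1.63, 2.24 and 1.57 RPM at 2 mm, against 1.21 and 0 RPM at 0.4 mm. In none of the 4 lines did the lengths overlap. Over the 4 lines the set was 2.33 higher on the log2(RPM + 0.1) scale at 2 mm (exact permutation test within lines, two-sided, p = 0.000278, the smallest that 3600 arrangements allow; adjusted p = 0.00667 over 24 sets of all families). Without Il14H its adjusted p was 0.056. Every 2-mm library also lay above every 0.4-mm library for the sets of Zm00001eb373670, Zm00027ab052420 and Zm00028ab264110, in each line with a gene. These too are miR396 sets, and no other of the 24 sets showed this.

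The second set found in every annotated variety, that of Zm00001eb071830, was also higher at 2 mm in each line. Zm00001eb071830 of B73 had 0.202 and 2.90 RPM at 2 mm, against 0.0757 and 0 RPM at 0.4 mm, so that 1 of the 2-mm libraries was far above the other. Zm00027ab071920 of HP301 had 0.499 and 0.304 RPM at 2 mm, against 0.110 and 0.0948 RPM at 0.4 mm. Zm00028ab072670 of Il14H had 0.530 and 0.463 RPM at 2 mm and was listed in no 0.4-mm library. Zm00039ab072180 of Oh43, the only member listed in every library of that line, had 0.181, 1.24 and 0.336 RPM at 2 mm, against 0.453 and 0.106 RPM at 0.4 mm. Its lengths overlapped, as those of the other lines did not. The set was 1.85 higher at 2 mm on the log2(RPM + 0.1) scale (exact permutation test, two-sided, p = 0.00111, adjusted p = 0.0133). Leaving out B73, Il14H, either 0.4-mm library of B73 or the second of Oh43 ended this call, with differences of 1.52 to 1.95.

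Reads of the 2 sets were partly shared. In 8 libraries their sites held fractions of a read, and in all 8 the reads of both sites together were whole. In the second 2-mm library of B73, for example, Zm00001eb071830 had 25.1 reads and Zm00001eb430300 had 18.9 reads. The split between the 2 genes in such libraries is therefore uncertain, although their sum is not. Over all members 59 values in 23 libraries were not whole reads, and 16 of these belonged to the 2 sets. Reads of other members may thus be shared too, as for Zm00027ab196220, with 9.74 reads in the first 2-mm library of HP301.

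**Figure D2:**
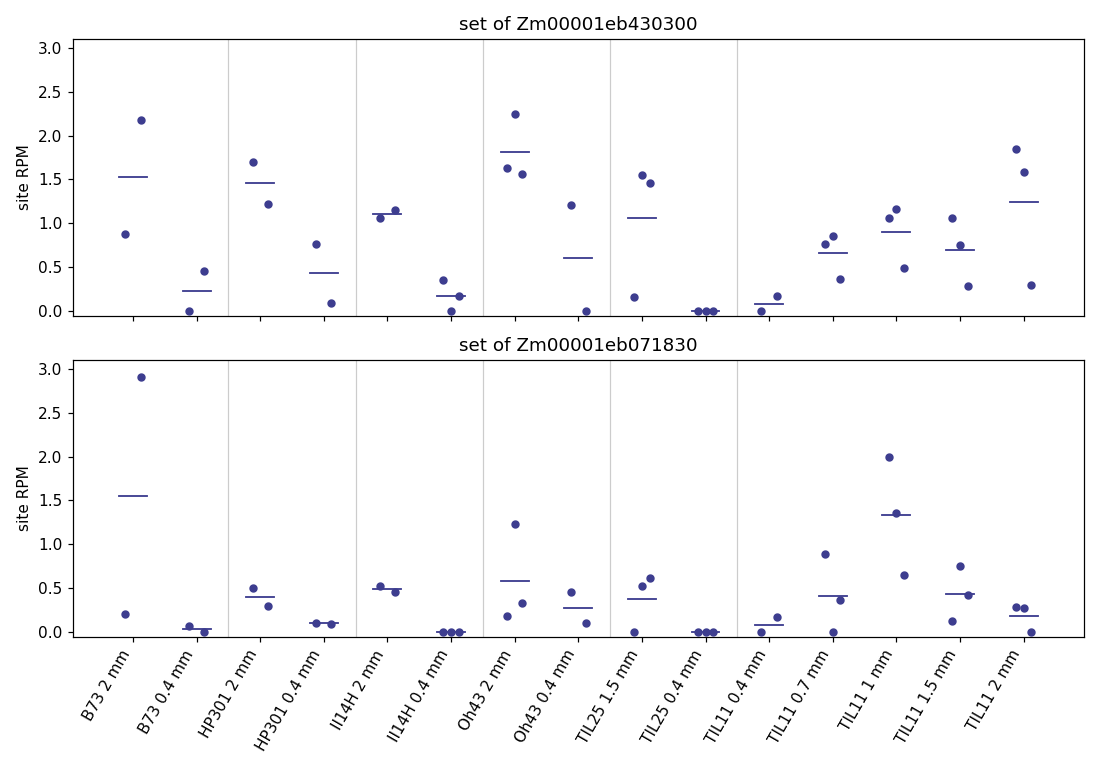
Site RPM in each library (points) and group mean (lines) for the 2 conserved GRF sets, by variety and anther length. The set of Zm00001eb430300 (top) has every 2-mm library above every 0.4-mm library within each maize line, and 1 of the 2-mm libraries of B73 reaches 2.90 RPM in the set of Zm00001eb071830 (bottom).

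The same sets were listed in the teosintes. Zx00003aa035563 of TIL25, which belongs to the set of Zm00001eb430300, had 0.168, 1.55 and 1.46 RPM at 1.5 mm and was listed in none of the 0.4-mm libraries. Zx00003aa005965, of the other set, had 0, 0.529 and 0.620 RPM at 1.5 mm and was also absent from the list at 0.4 mm. In TIL11, Zv00002aa039461 had 0 and 0.169 RPM at 0.4 mm, 0.762, 0.853 and 0.363 RPM at 0.7 mm, 1.06, 1.17 and 0.490 RPM at 1 mm, 1.06, 0.750 and 0.283 RPM at 1.5 mm, and 1.85, 1.58 and 0.302 RPM at 2 mm. Every library above 0.4 mm exceeded both 0.4-mm libraries, and the longer lengths overlapped each other. Zv00002aa006595, of the set of Zm00001eb071830, ran differently along the lengths: 0 and 0.169 RPM at 0.4 mm, 0.889, 0 and 0.363 RPM at 0.7 mm, 1.99, 1.36 and 0.654 RPM at 1 mm, 0.132, 0.750 and 0.425 RPM at 1.5 mm, and 0.284, 0.272 and 0 RPM at 2 mm. Its mean was highest at 1 mm, and that of Zv00002aa039461 at 2 mm. Whether the 2 genes differ in this was not tested.

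Of the 24 conserved sets of all miRNA families that could be tested in the maize lines, 3 passed (12.5%), and all 3 were miR396 sets. Since the genes were chosen by detection on these samples, these calls are no separate support for a difference between lengths. The third was the set of Zm00001eb373670, with genes in 3 of the lines and a difference of 1.86 (exact permutation test, two-sided, adjusted p = 0.0444). In this set Zm00027ab378230 of HP301 had 0.321 and 0.532 RPM at 2 mm and was listed at neither 0.4-mm library. Zm00039ab381520 of Oh43 had 0.0905, 0.139 and 0.559 RPM at 2 mm and was likewise listed only there. With such zeros the difference of a set depends on the 0.1 RPM added. The call was lost without any 1 of the 4 lines, and without either 0.4-mm library of B73, its second 2-mm library or any 1 library of Oh43, with differences of 1.61 to 2.00. The other 4 tested miR396 sets had positive differences of 1.02 to 2.22 that missed the threshold, with adjusted p of 0.0571 to 0.197 by the exact permutation test. All 7 sets were higher at 2 mm in every line where they had a gene. Having a gene meant being listed by the study, for some genes through 2-mm replicates alone. This agreement was therefore partly fixed by the choice of genes. None of the sets of the other families passed: the nearest were miR160 and miR394 sets, at an adjusted p of 0.0571, with differences of -0.92 and 1.27.

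Gene by gene, 84 members could be tested over the 7 varieties by limma, and 14 were higher and 2 lower in later anthers. A member could be tested only when listed in at least 2 libraries, which left out 40 of 135 entries of a gene in a set of libraries. Of the 63 tested at scores of at most 3, 12 were higher and none lower, and of the 21 at 3.5 or 4, 2 were higher and 2 lower. Over all 971 pairs of a miRNA family and a target outside *PHAS* loci, 95 were higher and 71 lower. Of the 14 higher members, 12 were listed in no earlier library. These passed the filter only through the later anthers and were tested against values of 0 without spread, so their calls describe where the sites were listed and are no separate support for a change. Their fitted differences depend on the 0.1 RPM added before taking logs, and none is given. The other 2 were Zm00027ab071920 and Zm00028ab442380, both of the conserved sets.

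HP301 had the most called members, 6 higher and 1 lower of 12 tested, where 61.3% of all pairs of that line were called, and outside *PHAS* loci 15.3% were higher and 5.88% lower. Zm00027ab196220 had 0.522 and 0.456 RPM at 2 mm and was not listed at 0.4 mm. Zm00027ab052420, with 0.375 and 0.304 RPM at 2 mm, and Zm00027ab378230, described above, were likewise unlisted at 0.4 mm. All 3 are GRF-listed genes, and each had at least 4 reads in both 2-mm libraries. At 0.4 mm 1 read of HP301 was worth 0.0948 to 0.110 RPM, below their values at 2 mm. Zm00027ab071920 of the second conserved set was 1.28 ± 0.33 (SE) higher (limma, adjusted p = 0.0433). The 2 remaining higher genes, Zm00027ab056390 and Zm00027ab114580, had a score of 4 and the same values, 0.161 and 0.152 RPM at 2 mm and none at 0.4 mm, so their reads may be shared. The lower gene, Zm00027ab350480, had a score of 4 for miR396f-5p and 0.214 and 0.152 RPM at 2 mm, against 0.440 and 0.474 RPM at 0.4 mm. Its call was marginal (limma, -0.99 ± 0.27 SE, adjusted p = 0.0494). Leaving out any 1 of the 4 libraries of HP301 left 0 members called.

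In Il14H 5 of 17 tested members were higher, where 51.2% of all pairs were called, and outside *PHAS* loci 9.8% were higher and 6.86% lower. All 5 are GRF-listed with a score of 2, and 4 of them were listed in no 0.4-mm library. Zm00028ab072670 is described above. Zm00028ab052870 had 0.265 and 0.578 RPM at 2 mm and Zm00028ab264110 had 0.133 and 0.498 RPM, and neither was listed at 0.4 mm. Zm00028ab257790 rested on a single read in each 2-mm library. Zm00028ab442380 of the first conserved set, which was listed at both lengths, was 2.39 ± 0.70 (SE) higher (limma, adjusted p = 0.036). Zm00028ab388830, the only member listed in every library of Il14H, had 0.265 and 1.16 RPM at 2 mm, against 0.526, 0.0814 and 0.125 RPM at 0.4 mm, and its lengths overlapped. The number called fell to 1 and to 0 when either of the 2-mm libraries was left out, and to 3 without the third 0.4-mm library.

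B73 and Oh43 gave few calls although their sums at scores of at most 3 did not overlap. In B73, where 43.2% of all pairs were called, and outside *PHAS* loci 8.39% were higher and 10.5% lower, the only called member of 11 was lower. This gene, Zm00001eb346100, pairs with miR396f-5p at a score of 4 and had 0.135 and 0.115 RPM at 2 mm, against 0.530 and 0.458 RPM at 0.4 mm. These values stand for 2 and 1 reads at 2 mm, against 7 and 6 reads at 0.4 mm (limma, -1.40 ± 0.18 SE, adjusted p = 0.0149). The call was lost without any 1 of the 4 libraries of B73, and the difference turned to 0.32 when each library was centred on its median over the pairs tested. The medians of the B73 libraries differed by -1.71 between 2 and 0.4 mm. Zm00001eb430300 and Zm00001eb071830 were 2.66 ± 1.14 and 2.85 ± 1.40 (SE) higher in B73 and were not called (limma, adjusted p = 0.167 and 0.213). A second member listed in all libraries of B73, Zm00001eb193180, had 0.0337 and 0.231 RPM at 2 mm, against 0.0757 and 0.0244 RPM at 0.4 mm. In Oh43 limma called 0 of 9 members, where 50.5% of all pairs were called and outside *PHAS* loci 11.1% were higher and 11.1% lower, and 1 had an unadjusted p under 0.05. This was Zm00039ab262170, with 0.0905, 0.696 and 0.419 RPM at 2 mm and none at 0.4 mm (limma, adjusted p = 0.0644). Outside *PHAS* loci 24 of the 99 pairs of Oh43 had an unadjusted p under 0.05. Zm00039ab191380, the most abundant member of Oh43 outside the GRF list, was seen in 1 library of 2 mm only, at 0.557 RPM.

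The teosintes added 3 calls. In TIL25, where 26.4% of all pairs were called, and outside *PHAS* loci 14.6% were higher and 0.971% lower, 2 of 9 members were higher. They were Zx00003aa035563, described above, and Zx00003aa018071, which had 0.335, 0.462 and 0.189 RPM at 1.5 mm and none at 0.4 mm. At 0.4 mm 1 read was worth 0.390 to 0.586 RPM, so that the level of Zx00003aa018071 at 1.5 mm was near or under 1 read there. The medians of the libraries differed by 2.93 between 1.5 and 0.4 mm, and after centring on them the difference was 0.21 for Zx00003aa035563, which was then not called, and -0.88 for Zx00003aa018071. Without 1 library the number called in TIL25 ranged from 0 to 5. In RIL003, where 53.7% of all pairs were called, and outside *PHAS* loci 18.4% were higher and 14.2% lower, 1 of 11 members was higher. RIL003_24893 had 0.383, 0.270 and 0.250 RPM at 1.5 mm and was listed in none of the 5 libraries of 0.4 and 0.7 mm. In each of these libraries 1 read was worth 0.211 to 0.312 RPM, about the level at 1.5 mm. An unlisted site in any 1 of them therefore does not show a lower level there. Whether its absence from all 5 libraries could arise from their depth was not tested. In TIL11, where 29.1% of all pairs were called, and outside *PHAS* loci 2.68% were higher and 4.03% lower, 0 of 15 members were called between the 1.5- and 2-mm libraries and the 0.4- and 0.7-mm libraries, and 4 had an unadjusted p under 0.05. Outside *PHAS* loci 43 of the 298 pairs of TIL11 had such an unadjusted p. Zv00002aa039461 was 1.37 ± 0.50 (SE) higher (limma, adjusted p = 0.0622) and Zv00002aa006595 was 0.48 ± 0.65 higher (limma, adjusted p = 0.665). Differences between varieties in these responses were not tested.

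**Figure D3:**
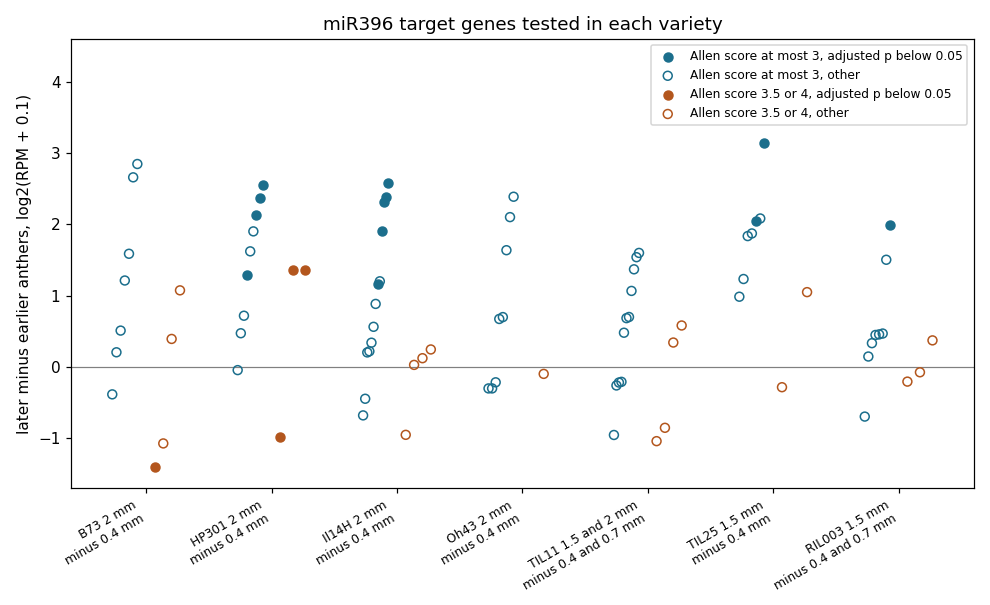
Difference between later and earlier anthers on the log2(RPM + 0.1) scale for each tested member, by variety, with closely paired members (Allen score at most 3) to the left and weakly paired ones to the right of each tick. Filled points passed an adjusted p of 0.05 in limma: 12 filled points of the closely paired class all lie above 0, and those of the other class lie on both sides, 2 above and 2 below. Of the 14 filled points above 0, 12 belong to genes listed in no earlier library.

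The weakly paired sites were led in 6 varieties by 1 gene each, with a score of 4 for miR396f-5p. They were not tested against the GRF-listed genes. Besides Zm00001eb346100 and Zm00027ab350480 they were Zm00028ab355130 in Il14H, Zv00002aa031668 in TIL11, Zx00003aa028525 in TIL25 and RIL003_33340. Zm00028ab355130 had 0 and 0.347 RPM at 2 mm, against 0.263, 0.0958 and 0.865 RPM at 0.4 mm. Zx00003aa028525 had 1.00, 0.231 and 0 RPM at 1.5 mm, against 1.17, 0 and 0.421 RPM at 0.4 mm. The lengths overlapped for both genes. Zv00002aa031668 had 0.667 and 0.846 RPM at 0.4 mm, 1.91, 1.10 and 0.544 RPM at 0.7 mm, 0.109, 0.467 and 0.163 RPM at 1 mm, 1.06, 0.187 and 0.849 RPM at 1.5 mm, and 0, 0.619 and 0.453 RPM at 2 mm. The difference between 1.5 and 2 mm and 0.4 and 0.7 mm was -1.04 ± 0.59 (SE) and was not called (limma, adjusted p = 0.247). RIL003_33340, the most abundant member of RIL003, had 1.11, 0.846 and 2.14 RPM at 0.4 mm, 0 and 0.449 RPM at 0.7 mm, and 0.410, 0.541 and 0.375 RPM at 1.5 mm. Its 3 libraries of 0.4 mm lay above all others of the variety. Sites of these genes never had an authors' p below 0.05.

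Of the miRNA families that the study names beside miR396 for conserved targets, miR160 cuts mRNAs of auxin response factors and miR171 those of GRAS transcription factors. Over the 7 varieties 1 member of miR160 was higher and 4 lower of 45 tested, and for miR171 2 were higher and 5 lower of 33. Sums of these 2 families took Allen scores of at most 4, while the closely paired miR396 sums took scores of at most 3. Summed miR160 sites were higher in later anthers without overlap only in TIL25 and lower without overlap only in Il14H. They overlapped in the other 5 varieties. The sums of miR171 were lower without overlap in Oh43 and TIL11 and overlapped elsewhere. These counts stand beside the 14 higher and 2 lower of 84 for miR396, and the families were not tested against each other.

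At 0.4 mm the maize lines and the teosintes had overlapping sums over all members. The variety means were 1.56 RPM in B73, 1.32 in HP301, 2.11 in Il14H and 1.34 in Oh43, against 2.21 RPM in TIL11, 0.921 in TIL25 and 2.51 in RIL003. The set of Zm00001eb430300 was 1.23 higher in the 4 maize lines than in TIL11 and TIL25 on the log2(RPM + 0.1) scale (exact permutation test over varieties, two-sided, p = 0.0667, the smallest that 15 arrangements allow), and that of Zm00001eb071830 was 0.44 higher (p = 0.533 by the same exact test). With 4 varieties against 2 the threshold of 0.05 cannot be reached, and variety and growth conditions cannot be told apart.

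In the *ago18* libraries miR396 sites were sparse in both genotypes. Summed over all members, ago18HM libraries had 0.333 to 3.16 RPM with a median of 0.941, and ago18HT libraries had 0.276 to 1.54 RPM with a median of 1.04, which is 2 to 14 reads per library over the 17 libraries. Sums for scores of at most 3 were 0 to 1.03 RPM in ago18HM and 0.0921 to 1.12 RPM in ago18HT. Both 2-mm libraries of B73, at 2.29 and 6.002 RPM, lay above all 17, at depths of 14.8 and 8.66 M reads against 1.35 to 12.03 M. The 0.4-mm libraries of B73, at 0.378 and 1.07 RPM, lay within the range of the 17. The genotypes thus overlapped, and B73 was a separate set of plants.

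At 0.5 mm the sums for scores of at most 3 were 0.743, 0 and 0 RPM in ago18HM, at depths of 1.35, 5.40 and 2.22 M reads, against 0.552 and 0.804 RPM in ago18HT, at 9.06 and 6.22 M reads. The sums for scores of 3.5 or 4 were 0.743, 0.925 and 3.16 RPM in ago18HM, against 0.993 and 0.161 RPM in ago18HT. The classes pointed in opposite directions, and the groups overlapped in each. At 2 mm the closely paired sums were 0.530, 0.166 and 0.628 RPM in ago18HM, against 0.134, 0.250 and 0.402 RPM in ago18HT, and at 5 mm they were 0.400, 0.525 and 1.03 RPM in ago18HM, against 0.878, 1.12 and 0.0921 RPM in ago18HT. These ranges overlapped too.

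**Figure D4:**
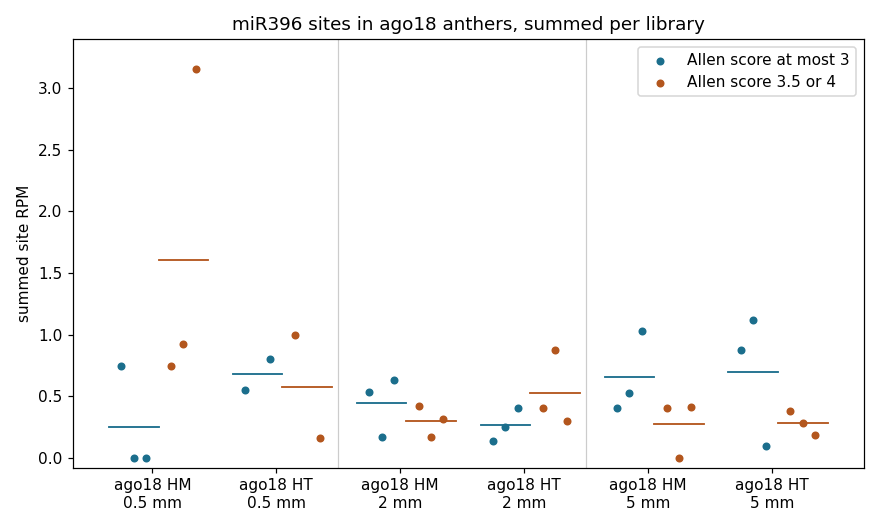
Summed site RPM of the miR396 members in each *ago18* library (points) and group mean (lines), by genotype and anther length, for both classes of Allen score. Points of ago18HM and ago18HT overlap at each length in both classes, and the highest point, 3.16 RPM, is 1 library of ago18HM at 0.5 mm.

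Between ago18HM and ago18HT, limma called 1 of 11 members at 0.5 mm, where 11.8% of all pairs and 5.14% of those outside *PHAS* loci were called. It called 0 at 2 mm, where 0.655% of all pairs and 0.906% of those outside *PHAS* loci were called, and 0 at 5 mm, where 0% were. Members with an unadjusted p under 0.05 numbered 2 at 2 mm and 3 at 5 mm, against 27 and 21 of the 331 pairs outside *PHAS* loci. The called gene, the GRF-listed Zm00001eb193180, had 0, 0 and 0 RPM in ago18HM at 0.5 mm, against 0.110 and 0.322 RPM in ago18HT (limma, adjusted p = 0.00413). The values in ago18HT stand for 1 and 2 reads, and the call was lost without the second of those libraries. In the ago18HM libraries 1 read was worth 0.743, 0.185 and 0.451 RPM, against ago18HT values that were both lower than 0.743 and 0.451 and lay on either side of 0.185. A level of 0.322 RPM was above 1 read only in the second of these ago18HM libraries. The part of depth in this call was not tested. At 2 mm the gene had 0.0529, 0 and 0.126 RPM in ago18HM, against none in ago18HT. The fitted change between 2 and 0.5 mm differed between the genotypes for this gene (limma interaction, adjusted p = 0.00411), where 6.99% of all pairs and 3.02% of those outside *PHAS* loci passed. This call rests on the same zeros. Neither it nor the call at 0.5 mm is separate support for a difference between genotypes. No other member passed the interaction test, and 0 of 11 passed the same test for 5 against 2 mm, where 0% of all pairs did and 4 members had an unadjusted p under 0.05. Such an unadjusted p was found for 25 of the 331 pairs outside *PHAS* loci.

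Within a genotype, later anthers of *ago18* plants gave 2 calls. In ago18HT, Zm00001eb193180 was lower at 2 than at 0.5 mm (limma, adjusted p = 0.00184), where 25.1% of all pairs and 6.95% of those outside *PHAS* loci were called. None of its 3 libraries of 2 mm listed the gene. Zm00001eb071830 had 0.376, 0.418 and 0.0921 RPM in ago18HT at 5 mm, against none at 2 mm (limma, adjusted p = 0.0289), where 4.15% of all pairs and 2.72% of those outside *PHAS* loci were called. That call was lost without any 1 of 4 of the 6 libraries. Both calls were made against values of 0 without spread and are no separate support for a change. In ago18HM the 2-mm libraries held 0.106, 0.0831 and 0.126 RPM of this gene, each 1 read, against none at 0.5 mm. For ago18HM limma called 0 of 11 members between 2 and 0.5 mm, where 10.9% of all pairs and 3.63% of those outside *PHAS* loci were called, and 0 between 5 and 2 mm, where 0.873% and 1.21% were, with 2 members at an unadjusted p under 0.05 in each. Of the 331 pairs outside *PHAS* loci, 36 and 34 had an unadjusted p under 0.05 in these 2 comparisons. Zm00001eb430300 had 0.318, 0.0831 and 0.251 RPM in ago18HM and none in ago18HT at 2 mm, while at 5 mm it had 0, 0.525 and 0 RPM in ago18HM, against 0.501, 0.418 and 0 RPM in ago18HT.

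The most abundant member in the *ago18* libraries was the weakly paired Zm00001eb346100. At 0.5 mm it had 0, 0.925 and 3.15 RPM in ago18HM, against 0.993 and 0 RPM in ago18HT. At 2 mm it had 0.424, 0.0831 and 0.251 RPM in ago18HM, against 0.403, 0.873 and 0.1004 RPM in ago18HT. At 5 mm the values were 0.400, 0 and 0.206 RPM in ago18HM, against 0.125, 0 and 0.184 RPM in ago18HT. The genotypes overlapped at each length, and the interval for the difference at 0.5 mm ran from -1.83 to 3.96 on the log2(RPM + 0.1) scale around 1.07 (limma, adjusted p = 0.917), so that a lower and a higher level in ago18HM are both within it at this depth.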

How the data were processed

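Small RNA cut sites were measured by nanoPARE in 63 anther samples, each also with a Smart-seq2 library. The authors ran the nanoPARE pipeline (EndCut step) on each sample without pooling replicates, on B73 RefGen_v5 for B73 and *ago18*, on version 1 assemblies of the other varieties and on transcripts assembled by them for RIL003. The pipeline version is not given in the sources used here. The deposited RPM of a site is the reads that begin there scaled to 1 M reads of the library, and only sites above 0 were listed. The deposited Allen score is the authors' mismatch score, from 0 to 6. The deposited adjusted p-value of each site came from the authors' EndCut step. The authors' fold change was not used, nor were the phasiRNA tables.

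The members and gene lists were chosen with earlier results of these data known. The value of a gene in a library was the highest RPM of its miR396 sites with an Allen score of at most 4, and 0 where none was listed. Depth came from the RPM of 1 read, the most frequent value of a library. At that depth 77.7 to 90.3% of the values were whole reads within 0.01 of a read, which was taken as too few for a count test, and the precision of most values is that of 1 to 3 reads. Differences were fitted with limma 3.58.1 in R 4.3.3 on log2(RPM + 0.1), with 1 fit per variety and 1 for the 17 *ago18* libraries, over pairs of a miRNA family and a target listed in at least 2 libraries. p-values were adjusted by the Benjamini-Hochberg method over all pairs of a fit, *PHAS* loci included, at a threshold of 0.05. Conserved sets were compared by exact permutation tests within maize lines, two-sided. Length labels are not exchangeable for genes that the study listed through replicates of a single length. Fold changes on the log2(RPM + 0.1) scale understate changes of low values. The scripts were tested on simulated data. No replicates were identical.

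Genes named are those of the miR396 sets filled in every annotated variety, the most abundant member and the most abundant one outside the GRF list in each variety, those past the threshold, at most 5 in each direction of a comparison, and those listed in all libraries of a variety. Zm00001eb269150, Zm00039ab262170, Zm00039ab381520 and the *ago18* values of Zm00001eb430300 at single lengths were named after their values were seen. Alternatives were pseudocounts of 0.02 and 0.5 RPM, no filter, other limits on the Allen score, the sum over sites, median-centred libraries, sites with an authors' p below 0.05 only, a replicate block, and leaving out each replicate or line. Leaving out each library for the sums at scores of at most 3 was added after the data were seen. NC358 was not analysed here.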

Additional observations from a re-analysis of the deposited data

Results flagged for a closer look

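In the *ago18* libraries the fitted change between 2 and 0.5 mm differed between the genotypes for 1 member, the GRF-listed Zm00001eb193180, by 2.17 ± 0.42 (SE) on the log2(RPM + 0.1) scale (limma interaction, adjusted p = 0.00411). The difference rests on 1.5 reads at 2 mm in ago18HM and none at 0.5 mm, against none at 2 mm in ago18HT and 3 reads at 0.5 mm. Its size depends on the 0.1 RPM added. With values of 0 without spread the call is no separate support for a difference between genotypes. In ago18HM at 0.5 mm 1 read was worth 0.185 to 0.743 RPM, against ago18HT values of 0.110 and 0.322 RPM. The part of depth in this difference was not tested.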

How the results depend on the processing

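Of 408 listed values 291 stand for 3 reads or fewer. The samples share replicate numbers but were not paired by them: over 84 pairs of samples with the same number, correlations of deviations from the group means ran from -0.198 to 0.354, and 8 exceeded 0.1. Over the 7 varieties 16 members were called, against 8 with a pseudocount of 0.5 RPM, 10 with no filter and 8 with the replicate block. By variety, the replicate block gave 0 called in B73, 3 in HP301, 3 in Il14H, 1 in TIL11 and 0 in TIL25, and for other comparisons the count stayed within 1.5 times. A pseudocount of 0.02 RPM gave 2 in B73 and 2 in Oh43. One of 0.5 RPM gave 3 in HP301, 3 in Il14H, 0 in TIL25 and 0 in ago18HT between 5 and 2 mm. With no filter B73 had 0, HP301 had 3 and ago18HT had 0 between 5 and 2 mm. An Allen score of at most 3 gave 0 in B73 and 4 in HP301. No limit on the score gave 3 in Il14H, 1 in TIL11, 2 in RIL003, and 2 each for ago18HM against ago18HT at 0.5 mm, ago18HT at 2 against 0.5 mm, and the interaction of these. Median-centred libraries gave 2 in B73, 8 in Il14H, 3 in Oh43, 1 in TIL25 and 0 in RIL003. The differences between library medians that this removes were -1.71 in B73, -0.89 in HP301, -1.48 in Il14H and -0.78 in Oh43, while the teosintes had 0 (TIL11), 2.93 (TIL25) and 0.60 (RIL003). It reversed Zm00001eb346100 in B73, to 0.32, and Zx00003aa018071 in TIL25, to -0.88. Sites with an authors' p below 0.05 only gave 0 in B73, 4 in HP301 and 1 in TIL11.

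Leaving out 1 library gave 0 to 1 called in B73, 0 in HP301, 0 to 4 in Il14H and 0 to 1 in Oh43. The same range was 0 to 2 for TIL11, 0 to 5 for TIL25 and 1 to 2 for RIL003. In the *ago18* comparisons it gave 0 to 1 for ago18HM against ago18HT at each length, 1 to 2 and 0 to 2 in ago18HT between 2 and 0.5 mm and between 5 and 2 mm, 0 to 1 for both in ago18HM, and 1 to 2 and 0 to 2 for the interactions. The number of miR396 sets called was 0 to 4 without 1 library or 1 line, with 1 without B73 and 0 without Il14H. Leaving out an arm down to 1 sample assumes that it varies like the others.

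The log2 ratio of summed RPM over all members was 1.65 in B73, 2.52 at scores of at most 3 and 2.60 with an authors' p below 0.05 only. In HP301 it was 1.79, and 0.88 with no limit on the score. In Il14H it was 1.28, and 1.77, 0.93 and 1.77 under these 3 settings. TIL11 gave 0.43, 0.93 at scores of at most 3 and 0.90 with the authors' p. RIL003 gave 0.13, 1.16 and 1.35. For ago18HM over ago18HT it was 0.56 at 0.5 mm, and -1.45 at scores of at most 3, -0.32 with no limit and -1.45 with the authors' p, and at 2 mm it was -0.09, and 0.75 in both stricter settings. Leaving out libraries for sums at scores of at most 3 was added after the data were seen. Over all members, without 1 library the log2 ratio was 0.86 to 2.15 in B73, 1.28 to 2.58 in HP301, 0.81 to 3.23 in Oh43 and 1.60 to 4.31 in TIL25. The causes of these shifts were not tested. The direction of a called member was the same in 297 of 299 repeats, and 75 of these lost the call. This agreement is no separate support. Of the 14 higher members 12 were listed in no earlier library, and another pseudocount or a library left out cannot turn their direction. Both reversals came with median-centred libraries.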
